A study of Mus musculus with 9 samples.

Results

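Amino acid transporters are the proteins through which a cell takes up, exchanges and shares out its amino acids. The 10 genes described here, Slc7a11, Slc7a5, Slc3a2, Slc7a1, Slc1a4, Slc1a5, Slc38a1, Slc38a2, Slc6a9 and Slc7a6, were chosen by symbol among the protein-coding genes of a read count table. All 10 were found, among 56748 genes of which 21970 are protein coding, and all 10 passed the filter on low counts. RNA-Seq had been performed on Hepa1-6 cells, an established mouse hepatoma line grown in serum-containing medium, in 3 groups of 3 libraries. Cells of the lefamulin group received 37 µg/mL lefamulin and cells of the tiamulin group 37 µg/mL tiamulin, in both cases for 2 days, and the control group is labelled as having no treatment, while the methods of the study speak of vehicle. All 9 libraries are of 1 cell line, and no label says that they came from separate cultures, so p values measure the spread between these libraries, which may be technical.

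Lefamulin and tiamulin are pleuromutilin antibiotics, which bind the bacterial ribosome. They share a tricyclic core and differ in the thioether side chain, which ends in a diethylamino group in tiamulin and in an amino-hydroxycyclohexyl group in lefamulin.

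Plasma membrane amino acid transporters work as sodium-driven pumps, as exchangers that let an amino acid out for each one they take in, or as uniporters. Some light chains of the SLC7 family reach the membrane only when bound to the heavy chain encoded by Slc3a2, known as CD98hc or 4F2hc. Many of these genes are known targets of ATF4, the transcription factor made when amino acids run short or when protein synthesis is stressed, and Slc7a11 is also a known target of NRF2, the regulator of the antioxidant response. In liver cancer cells they supply glutamine and leucine for growth and cystine for glutathione.

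The libraries held from 15568887 to 18008105 counted reads each, and the 10 transporters took between 0.276% and 0.375% of them. The hepatocyte list was expressed (9 of its 12 genes at an FPKM of at least 1 in all 9 libraries), with Serpina1a at 0 and with Apoa1 and Ttr at no more than 6 counts. Its summed FPKM was 1760 to 1901 in control, 1692 to 1779 under lefamulin and 1816 to 2192 under tiamulin, a sum in which members moved in opposite directions. Under tiamulin Afp and Alb fell by 0.81 and 0.50 on the log2 scale (edgeR adjusted p = 5.45e-07 and 7.56e-05) and Krt18, the largest term, rose by 0.37 (adjusted p = 0.00389), while under lefamulin Alb fell by 0.24 (adjusted p = 0.0166). Blood cell markers summed to between 0.622 and 1.27 FPKM over all libraries, with Cd3e and Adgre1 at 0. Of its other members, Csf1r, at no more than 58 counts, fell under both drugs (−1.33 and −1.32, edgeR adjusted p = 0.0119 and 0.00949), and Ptprc, at no more than 16 counts, rose (2.45 and 2.12, adjusted p = 0.0168 and 0.0336). Fibroblast markers summed to 2.51 to 3.03 FPKM in control, 1.98 to 2.24 under lefamulin and 2.94 to 3.30 under tiamulin, with Col3a1 and Lum at no more than 1 count. Most of that sum was Pdgfra, which fell under lefamulin (−0.46, adjusted p = 0.00559) and was at 0.14 under tiamulin (adjusted p = 0.347). The 4 endothelial markers summed to 0.198 to 0.267 FPKM in control, 0.402 to 0.628 under lefamulin and 0.479 to 0.723 under tiamulin, with Cdh5, Tek and Kdr at no more than 2, 3 and 8 counts. The largest term in every library was Pecam1, at no more than 67 counts, which rose by 1.29 and 1.39 on the log2 scale (edgeR adjusted p = 0.0101 and 0.00461), and the part of these markers in the results was not tested. The deviation of the library tiamulin 2 from its group rose with the GC content of a gene (Spearman rho = 0.719 over 9173 genes, a description without a test), while tiamulin 1 and tiamulin 3 had rho = −0.577 and −0.612, which follow in part from the shared group mean. Control 1 and control 2 also deviated along GC content, with rho = 0.537 and −0.523, and the other libraries lay between −0.167 and 0.202. Values of the transporters under tiamulin are therefore also given without tiamulin 2.

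Of the 10 transporters, 8 rose under lefamulin and 8 under tiamulin, and 0 fell, at an adjusted p value below 0.05 in edgeR's quasi-likelihood test. At an unadjusted p value below 0.05, 0 fell under lefamulin and 1, Slc7a6, under tiamulin, and DESeq2 counted 8 raised and 0 lowered under each drug at the adjusted threshold. The genes that rose under each drug were Slc3a2, Slc7a11, Slc7a5, Slc7a1, Slc1a4, Slc1a5, Slc38a2 and Slc6a9. Among all 14510 genes tested, 7.09% rose and 6% fell under lefamulin, and 9.08% rose and 7.34% fell under tiamulin. The median log2(fold change) of the 10 was 0.40 under lefamulin and 0.40 under tiamulin, beside −0.0018 and 0.0034 for all tested genes. In these 8 genes every treated library lay above every control library, which was so for 18.9% of all tested genes under lefamulin and for 17.1% under tiamulin. Of the 10, 0 also passed an absolute log2(fold change) of 1, the second threshold of the study (0 by DESeq2 and by limma as well), which 1.51% and 1.78% of all tested genes did with either sign. Both comparisons use the same 3 controls. The 10 were chosen with earlier results of these data known, so these counts are not independent evidence. The count under lefamulin was 5 without control 1, control 3, lefamulin 2 or lefamulin 3, and without tiamulin 2 it was 8 under each drug. In bulk RNA, more RNA of a gene per cell and more cells holding it cannot be told apart.

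**Figure D1:**
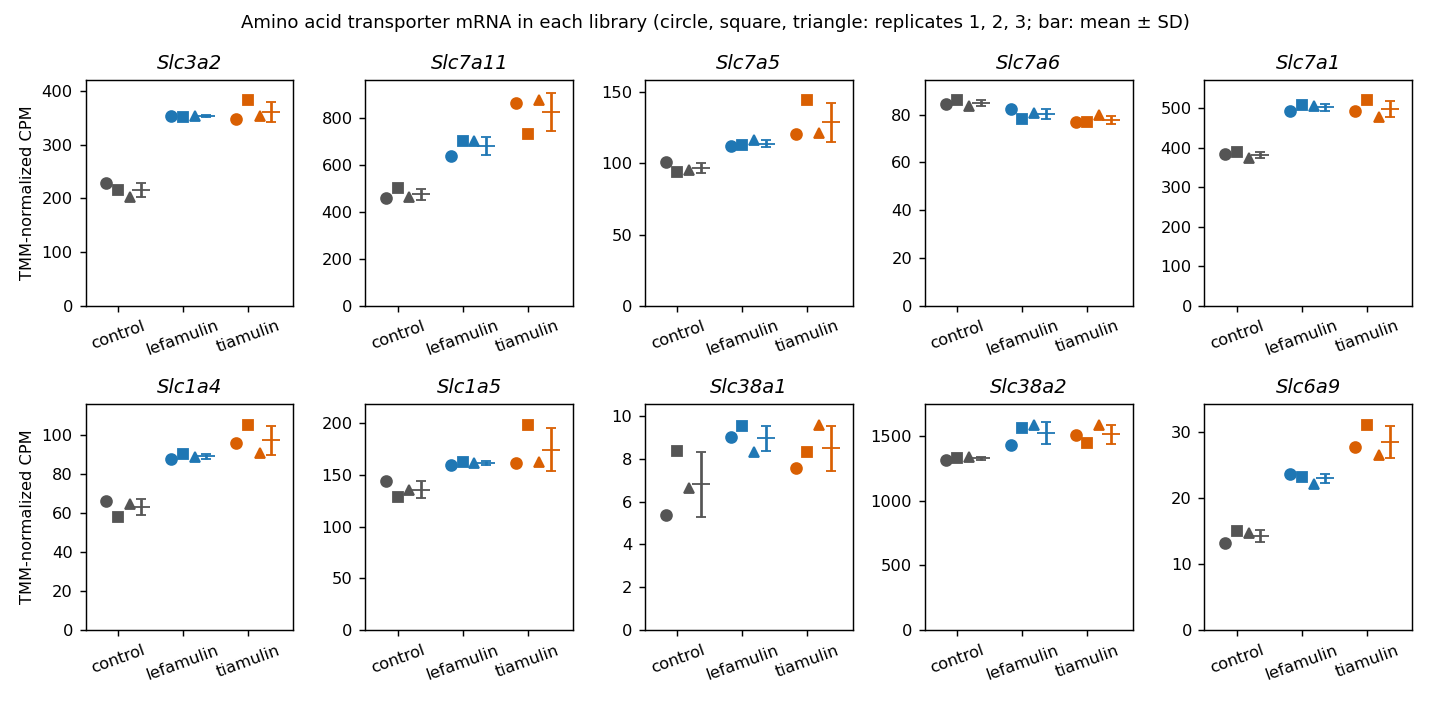
TMM-normalized CPM of the 10 transporters in the 9 libraries, 1 panel per gene, with a y axis that starts at 0. Circles, squares and triangles are replicates 1, 2 and 3 and bars are the mean ± SD of a group (n = 3). In 8 panels all 6 treated libraries lie above the 3 controls, while Slc7a6 lies slightly lower in treated libraries and Slc38a1 overlaps.

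The largest value under lefamulin, not apart from that of Slc6a9 beyond their SE, was in Slc3a2 (ENSMUSG00000010095; chromosome 19, 8684246 to 8700733, minus strand), the heavy chain that carries SLC7 light chains to the membrane. It had 229, 216 and 202 CPM (the read count scaled to the size of the library, with TMM factors) in control 1 to 3, 353, 351 and 354 in the lefamulin libraries, and 348, 383 and 352 in the tiamulin libraries. The treated libraries were all far above the controls, and the lefamulin libraries hardly differed from each other. By edgeR's quasi-likelihood test the log2(fold change) was 0.71 ± 0.059 (SE) under lefamulin (adjusted p = 3.24e-06), an increase of 63.6%, and 0.74 ± 0.059 under tiamulin (adjusted p = 1.51e-06), an increase of 67.4%.

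Slc7a11 (ENSMUSG00000027737; chromosome 3, 49846975 to 50398063, minus strand) encodes xCT, the light chain that exchanges glutamate inside the cell for cystine outside and so feeds glutathione synthesis. Its CPM were 457, 501 and 463 in control, 638, 701 and 702 under lefamulin, and 864, 730 and 875 under tiamulin. All 3 groups were apart, in the order control, lefamulin, tiamulin, and tiamulin 2 was the library of its group nearest to lefamulin. Slc7a11 rose by a log2(fold change) of 0.52 ± 0.071 under lefamulin (edgeR adjusted p = 0.000232) and 0.80 ± 0.071 under tiamulin (adjusted p = 4.03e-06). Without tiamulin 2 the latter was 0.88 ± 0.045.

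The bases upstream of the Slc7a11 start are shown because this gene rose under each drug and its window holds, on both strands, the letters of the ATF4 and C/EBP composite element. Matches to TGATGNAA, read on either strand, are in capitals. The sequence is from RefSeq (GRCm38.p6, chr3:50443614-50443863, minus strand, given 5′ to 3′ up to the base before the start), and the matches lie at −66 to −59 and −47 to −40.
Slc7a11: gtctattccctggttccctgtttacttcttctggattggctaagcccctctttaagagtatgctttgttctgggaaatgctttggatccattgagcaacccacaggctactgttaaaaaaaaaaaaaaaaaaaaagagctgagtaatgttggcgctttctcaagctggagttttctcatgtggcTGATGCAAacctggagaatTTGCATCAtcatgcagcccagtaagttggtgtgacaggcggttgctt

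Slc7a5 (ENSMUSG00000040010; chromosome 8, 122607889 to 122634433, minus strand) encodes LAT1, the light chain that brings in leucine and other large neutral amino acids. It had 101, 93.6 and 95.6 CPM in control, 113, 113 and 117 under lefamulin, and 121, 144 and 121 under tiamulin, with tiamulin 2 well above all other libraries. The groups did not overlap. The log2(fold change) was 0.24 ± 0.072 under lefamulin (edgeR adjusted p = 0.0443) and 0.41 ± 0.072 under tiamulin (adjusted p = 0.00119), or 0.32 ± 0.053 without tiamulin 2. The call under lefamulin was lost without any one of control 1, 2 or 3 or lefamulin 1, 2 or 3 (adjusted p from 0.0715 to 0.151).

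Slc7a6 (ENSMUSG00000031904; chromosome 8, 106895489 to 106925338, plus strand) encodes y+LAT2, a light chain that exchanges arginine for neutral amino acids with sodium. It was the only one of the 10 whose treated libraries were all below the controls. Control libraries had 84.5, 86.0 and 83.7 CPM, lefamulin libraries 82.2, 78.1 and 80.6, and tiamulin libraries 76.9, 76.8 and 79.7. The log2(fold change) of −0.08 ± 0.057 under lefamulin (edgeR adjusted p = 0.424) and −0.12 ± 0.057 under tiamulin (adjusted p = 0.167) did not pass the test.

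Slc7a1 (ENSMUSG00000041313; chromosome 5, 148264220 to 148336714, minus strand) encodes CAT1, a carrier of arginine and lysine that needs no heavy chain. It had 383, 389 and 373 CPM in control, 492, 509 and 504 under lefamulin, and 494, 520 and 479 under tiamulin. The treated groups overlapped each other and lay well above control. Slc7a1 rose by a log2(fold change) of 0.40 ± 0.050 under lefamulin (edgeR adjusted p = 0.000135) and 0.38 ± 0.050 under tiamulin (adjusted p = 0.000132).

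The SLC1 members exchange neutral amino acids. Slc1a4 (ENSMUSG00000020142; chromosome 11, 20252180 to 20282713, minus strand) encodes ASCT1, an exchanger of alanine, serine and cysteine, and had 66.2, 58.2 and 64.7 CPM in control, 87.8, 90.6 and 89.0 under lefamulin, and 95.7, 105 and 90.8 under tiamulin. The 3 groups did not overlap. Slc1a4 rose by a log2(fold change) of 0.50 ± 0.072 under lefamulin (edgeR adjusted p = 0.00037) and 0.63 ± 0.072 under tiamulin (adjusted p = 3.94e-05). Slc1a5 (ENSMUSG00000001918; chromosome 7, 16515265 to 16532199, plus strand) encodes ASCT2, the glutamine exchanger, and had 144, 128 and 135 CPM in control, 159, 163 and 162 under lefamulin, and 162, 199 and 163 under tiamulin. Here tiamulin 2 stood above the other libraries, and tiamulin 1 and 3 lay among the lefamulin libraries. Its log2(fold change) was 0.25 ± 0.077 under lefamulin (edgeR adjusted p = 0.0476) and 0.36 ± 0.077 under tiamulin (adjusted p = 0.0051), or 0.26 ± 0.051 without tiamulin 2. The call of Slc1a5 under lefamulin was lost without any one of control 1, 2 or 3 or lefamulin 1, 2 or 3 (adjusted p from 0.0618 to 0.166).

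The SLC38 members pump glutamine, alanine and other small neutral amino acids with sodium. Slc38a2 (ENSMUSG00000022462; chromosome 15, 96585273 to 96597611, minus strand) encodes SNAT2, which is induced when amino acids are scarce. It was by far the most abundant of the 10, with 1317, 1327 and 1338 CPM in control, 1429, 1559 and 1584 under lefamulin, and 1504, 1442 and 1587 under tiamulin. The controls were close together and all treated libraries lay above them. The log2(fold change) was small, 0.20 ± 0.054 under lefamulin (edgeR adjusted p = 0.0245) and 0.19 ± 0.054 under tiamulin (adjusted p = 0.0271). The call under lefamulin was lost without control 1, 2 or 3 (adjusted p = 0.0891, 0.0655 and 0.0904) and without lefamulin 2 or 3 (0.120 and 0.122). That under tiamulin was lost without control 1, 2 or 3 (adjusted p = 0.0860, 0.0772 and 0.0910) and without tiamulin 1 or 3 (0.0580 and 0.0961), and was kept without tiamulin 2 (0.000166).

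Slc38a1 (ENSMUSG00000023169; chromosome 15, 96469299 to 96540794, minus strand) encodes SNAT1 and was the least abundant, with 93, 144 and 119 counts in control, 141, 158 and 136 under lefamulin, and 124, 133 and 163 under tiamulin. These are 5.37, 8.38 and 6.65 CPM in control, 9.01, 9.52 and 8.33 under lefamulin, and 7.55, 8.31 and 9.60 under tiamulin, so the groups overlapped through control 2. The test was not passed, with a log2(fold change) of 0.40 ± 0.163 under lefamulin (edgeR adjusted p = 0.127) and 0.32 ± 0.163 under tiamulin (adjusted p = 0.208). Without control 2 it passed under lefamulin (log2(fold change) 0.58, adjusted p = 0.0450).

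Slc6a9 (ENSMUSG00000028542; chromosome 4, 117691703 to 117732395, plus strand) encodes GLYT1, which takes up glycine with sodium and chloride. It had the largest increase under tiamulin and the next to largest under lefamulin. Its CPM were 13.28, 14.96 and 14.74 in control, 23.6, 23.2 and 22.2 under lefamulin, and 27.8, 31.2 and 26.6 under tiamulin, 3 groups that did not overlap. Slc6a9 rose by a log2(fold change) of 0.68 ± 0.095 under lefamulin (edgeR adjusted p = 0.000283) and 0.99 ± 0.094 under tiamulin (adjusted p = 6.84e-06), the latter just under the threshold of 1. It passed 1 without control 2, control 3, tiamulin 1 or tiamulin 3, and was 0.92 ± 0.098 without tiamulin 2. Genes on the opposite strand overlap it, of which B4galt2, at 4 to 17 counts, held 2.50% as many counts as Slc6a9, and whether counting used strand is not given in the sources used here.

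**Figure D2:**
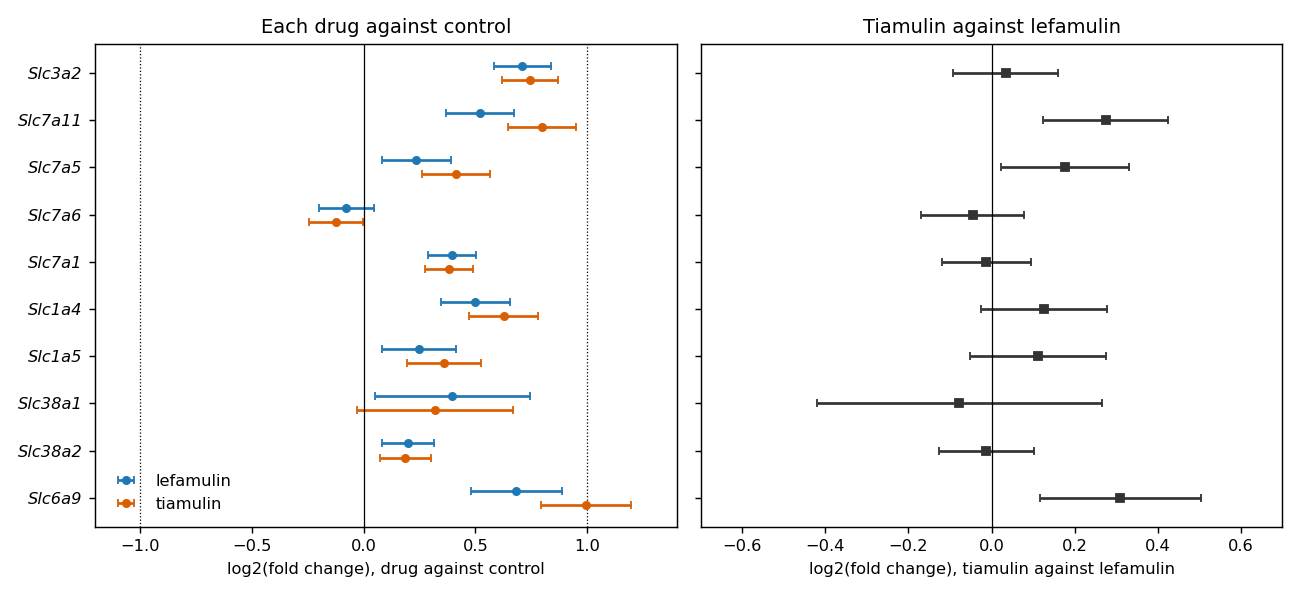
Log2(fold change) of the 10 transporters with the 95% interval of each (edgeR, 3 libraries a group, not adjusted for the number of genes). The left panel sets each drug against control, with dotted lines at −1 and 1, and the right panel sets tiamulin against lefamulin. All points but Slc7a6 lie right of 0 in the left panel, and in the right panel the intervals of Slc7a11, Slc7a5 and Slc6a9 lie right of 0.

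The drugs were compared directly at the same concentration and time, 1 pair of compounds over all 14510 genes, of which 4.9% differed in either direction. Of the 10 transporters, 1 differed. Slc7a11 was higher under tiamulin than under lefamulin by a log2(fold change) of 0.27 ± 0.071 (95% interval 0.12 to 0.43, edgeR adjusted p = 0.0402), a 1.21-fold difference. Every tiamulin library was above every lefamulin library. The call was lost without control 1 or 3 (adjusted p = 0.0560 and 0.0744), without lefamulin 1, 2 or 3 (0.165, 0.109 and 0.113) and without tiamulin 1 or 3 (0.106 and 0.0832), while without tiamulin 2 the difference was 0.35 ± 0.045 (adjusted p = 6.15e-06).

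For the other 9 transporters no difference between the drugs passed the test, which does not show that the drugs acted alike. Slc6a9 came closest, at 0.31 ± 0.091 (95% interval 0.12 to 0.50, edgeR adjusted p = 0.0658), with its tiamulin libraries all above its lefamulin libraries. Libraries were apart in the same direction for Slc7a5 (0.18, interval 0.02 to 0.33, adjusted p = 0.171) and Slc1a4 (0.13, interval −0.02 to 0.28, adjusted p = 0.320). Without tiamulin 2, the library that ran high in GC-rich genes, the differences of Slc7a5, Slc1a4 and Slc1a5 were 0.09, 0.07 and 0.01. That of Slc6a9 ran from 0.22 to 0.36 over 19 alternative fits and did not pass in any of them. Intervals lay on both sides of 0 for Slc7a1 (−0.01, interval −0.12 to 0.10), Slc38a2 (−0.01, interval −0.13 to 0.10) and Slc3a2 (0.03, interval −0.09 to 0.16). For Slc7a6 the difference was −0.05 (interval −0.17 to 0.08), for Slc1a5 0.11 (interval −0.05 to 0.28) and for the weakly expressed Slc38a1 −0.08 (interval −0.42 to 0.27).

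The deviation of tiamulin 2 ran along the GC content of the transporters. It was the highest tiamulin library in Slc6a9, Slc1a5 and Slc7a5, with a GC content of 57.0%, 56.7% and 56.3% (longest GENCODE M21 transcript), and also in Slc3a2 (53.4%), Slc1a4 (52.9%) and Slc7a1 (51.3%). It was the lowest in Slc7a11 (40.7%) and Slc38a2 (44.7%). For the transporters whose value against control without tiamulin 2 is not given above, it was 0.70 in Slc3a2, 0.35 in Slc7a1, 0.56 in Slc1a4, 0.22 in Slc38a2, 0.33 in Slc38a1 and −0.11 in Slc7a6, on the same side of the threshold as with it. In edgeR fits with offsets for GC content and length, the same 8 transporters rose under tiamulin, Slc7a6 fell (log2(fold change) −0.14, adjusted p = 0.0384), and Slc38a1 rose under lefamulin (0.42, adjusted p = 0.0481) beside those 8. Slc7a11 remained higher under tiamulin than under lefamulin there (0.27, adjusted p = 6.33e-06).

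Levels were compared between genes on the deposited FPKM, which divides by gene length. That is 1 deposited length per gene, such as 3529 bases for Slc3a2, 13922 for Slc7a11 and 17236 for Slc38a1. Which transcripts the cells express was not examined, so the order and the ratios between genes depend on these lengths. In control the order of mean FPKM was Slc38a2 (149), Slc3a2 (60.8), Slc7a11 (33.9), Slc7a1 (32.9), Slc1a5 (32.4), Slc7a5 (26.0), Slc7a6 (18.4), Slc1a4 (15.98), Slc6a9 (2.77) and Slc38a1 (0.393). The library ranges of Slc7a11 and Slc7a1, and of Slc7a1 and Slc1a5, overlapped, so these neighbours did not differ beyond their spread. Under lefamulin no neighbours overlapped, and Slc7a11 (48.6) stood clear of Slc7a1 (43.3). Under tiamulin Slc7a11 reached 58.8, while Slc7a1, Slc1a5 and Slc7a5 (42.9, 41.6 and 34.6) overlapped from each to the next. Slc1a4 was below Slc7a6 in control and above it under lefamulin (22.6 against 17.5) and tiamulin (24.7 against 16.9), with no overlap in any group. The FPKM of the 10 summed to 373 ± 5.02 in control, 477 ± 13.6 under lefamulin and 498 ± 9.16 under tiamulin (SD, n = 3).

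**Figure D3:**
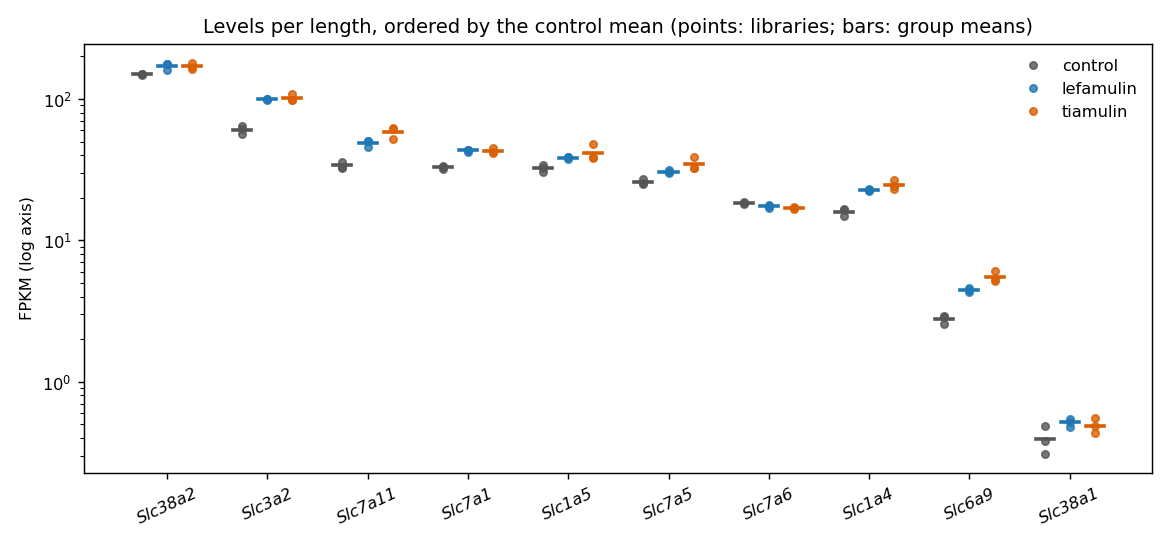
FPKM of the 10 transporters on a log axis, ordered by the control mean, with a point for each library and a bar for each group mean. Slc38a2 is highest and Slc38a1 lowest in each group, and Slc1a4 moves from below Slc7a6 in control to above it under both drugs.

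The heavy chain was set against the light chains that bind it, again as FPKM. The light chains Slc7a5, Slc7a6, Slc7a7, Slc7a8, Slc7a10 and Slc7a11 summed to 83.6 ± 1.61 in control, 103 ± 2.44 under lefamulin and 116 ± 1.66 under tiamulin (SD, n = 3). Slc3a2 was 0.781, 0.713 and 0.690 of that sum in the control libraries, 0.991, 0.958 and 0.948 under lefamulin, and 0.840, 0.947 and 0.841 under tiamulin. The treated libraries all had more heavy chain mRNA per light chain mRNA than the controls, and the tiamulin libraries less than the lefamulin libraries.

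The make-up of the light chain mRNA also moved. Slc7a11 was 39.5%, 41.9% and 40.0% of it in control, 45.3%, 48.5% and 47.7% under lefamulin, and 52.9%, 45.8% and 52.9% under tiamulin. Slc7a6 was 22.1% ± 0.173 in control, 17.0% ± 0.722 under lefamulin and 14.6% ± 0.209 under tiamulin, 3 groups that were apart. Slc7a5 stayed between 27.6% and 34.0% in all libraries, with overlapping groups. Slc7a7, the light chain y+LAT1, was between 4.82% and 6.83%, and Slc7a8 and Slc7a10 were at or under 0.0988%. These ratios were worked out with the members' values known and carry no test, and mRNA ratios are not protein ratios.

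**Figure D4:**
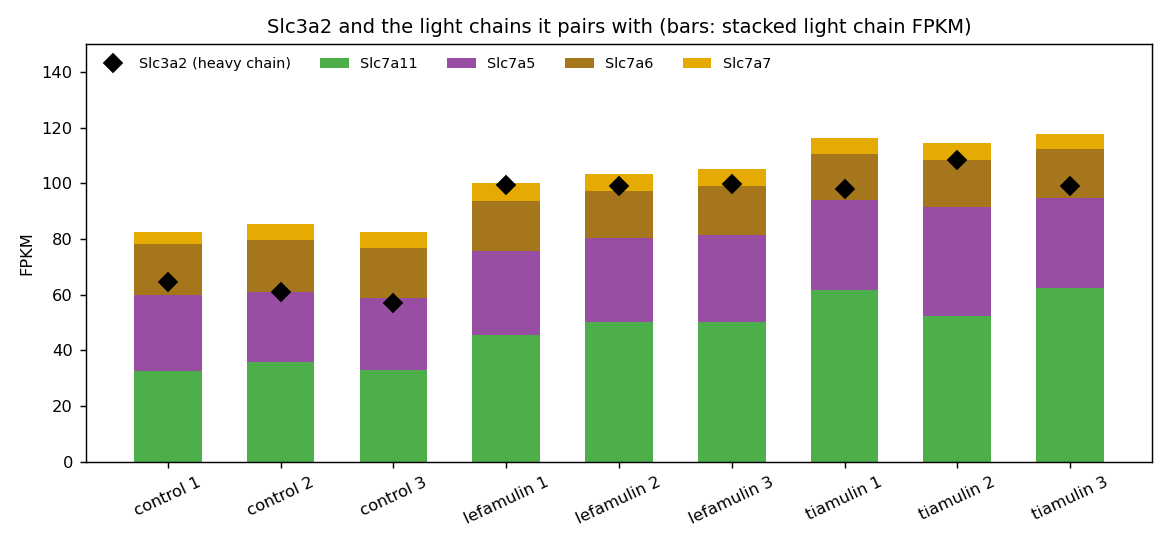
FPKM of the light chains in each library, stacked from 0 (Slc7a11, Slc7a5, Slc7a6, Slc7a7), with the heavy chain Slc3a2 as a diamond. Slc7a8 and Slc7a10, at under 0.1 FPKM, are left out. The diamond sits near the top of the stack in lefamulin libraries and lower in the controls.

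The other amino acid transporters of the table mostly had few reads or did not pass the test. Of 61, 30 passed the filter on low counts, of which 1 rose and 2 fell under lefamulin, and 5 rose and 3 fell under tiamulin, with median log2(fold changes) of 0.05 and 0.11. These counts changed with a library left out, as given below by list. At the plasma membrane 11 of 37 were tested, and the 2 that fell under lefamulin, Slc7a2 and Slc1a2, also fell under tiamulin. Without tiamulin 2 there was 1 higher and 2 lower under lefamulin, and 1 higher and 3 lower under tiamulin. Slc7a2, which encodes CAT2, a carrier of arginine and lysine like the product of Slc7a1, had 109, 110 and 102 CPM in control, 72.9, 64.0 and 63.7 under lefamulin, and 51.8, 37.7 and 48.3 under tiamulin. The 3 groups were apart, in the order opposite to that of Slc7a11. The log2(fold change) of Slc7a2 was −0.68 ± 0.097 under lefamulin (edgeR adjusted p = 0.000366) and −1.22 ± 0.099 under tiamulin (adjusted p = 1.83e-06), and it was lower under tiamulin than under lefamulin (−0.54, adjusted p = 0.00759), a call lost without lefamulin 1.

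Slc1a2, a glutamate transporter of astrocytes and hepatocytes, had 170, 228 and 243 counts in control, 66, 102 and 95 under lefamulin, and 58, 70 and 106 under tiamulin. Slc1a2 fell in both comparisons, with log2(fold changes) of −1.18 ± 0.203 (edgeR adjusted p = 0.00155) and −1.37 ± 0.206 (adjusted p = 0.000402). Slc38a6 rose under tiamulin (0.33 ± 0.068, adjusted p = 0.00408), the only one of these 11 to do so.

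Of 11 transporters of lysosomes and vesicles, 0 passed under lefamulin (3 at an unadjusted p value below 0.05 in edgeR, all higher, 0 by DESeq2 and limma, but 3 higher and 1 lower with GC content and length offsets and 2 higher with the offsets and a replicate block) and 3 rose under tiamulin. These were Slc38a7, which exports glutamine from lysosomes (log2(fold change) 0.34, edgeR adjusted p = 0.0176), the cystine exporter Ctns (0.29, adjusted p = 0.0244) and Mfsd12, which is needed for cysteine import into lysosomes (0.35, adjusted p = 0.0256). The 3 under tiamulin were 0 without control 2 or control 3 and 1 without tiamulin 1, and without tiamulin 2 there were 3 higher and 1 lower under lefamulin. Of 8 mitochondrial carriers, Slc25a44, a carrier of branched-chain amino acids, rose under lefamulin (0.34, adjusted p = 0.00766). Under tiamulin the aspartate and glutamate carriers moved apart, with Slc25a12 higher (0.40, adjusted p = 0.0360) and Slc25a13 lower (−0.30, adjusted p = 0.00866). Without tiamulin 2 there were 2 mitochondrial carriers higher and 1 lower under lefamulin, and 0 higher and 2 lower under tiamulin. The 1 that rose under tiamulin was also lost without control 1, control 2 or any 1 lefamulin library. Slc25a44 was lost without control 3 or lefamulin 2.

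The ATF4 list holds the factor, its partners and genes of the amino acid response, and 22 of its 24 genes in the table were tested. Ddit3, also on the list, was not matched to a single protein-coding entry of the count table. It was not analysed, so the counts below leave it out. Under lefamulin 11 rose and 0 fell (0 also at an unadjusted p value below 0.05 in edgeR and by DESeq2), and under tiamulin 17 rose and 1 fell, with median log2(fold changes) of 0.27 and 0.46. Without tiamulin 2 the counts that rose were 17 and 17. This list was drawn up with earlier results of these data known, so its counts are not independent evidence. Atf4 itself had 451, 439 and 427 CPM in control, 545, 528 and 527 under lefamulin, and 563, 660 and 572 under tiamulin. Atf4 rose by a log2(fold change) of 0.28 ± 0.061 (edgeR adjusted p = 0.00801) and 0.45 ± 0.061 (adjusted p = 0.000196), and its treated libraries were all above control.

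Chac1, a glutathione-degrading enzyme, had the largest change of the list under each drug, with 19.6, 19.4 and 18.1 CPM in control, 49.2, 45.9 and 49.5 under lefamulin, and 58.2, 70.4 and 57.8 under tiamulin. On the log2 scale Chac1 rose by 1.34 ± 0.091 and 1.71 ± 0.091 (edgeR adjusted p = 4.15e-07 and 3.28e-08), and Chac1 was higher under tiamulin than under lefamulin by 0.37 ± 0.085 (adjusted p = 0.0258), as Slc7a11 was. Trib3, a pseudokinase that dampens the response, rose by 1.16 and 1.34, and the stress factor Atf3 by 1.24 and 1.04. The asparagine synthetase Asns rose by 0.44 and 0.59, Sesn2, which restrains mTORC1, by 0.62 and 0.55, the stress cofactor Nupr1 by 0.88 and 0.71, and Ppp1r15a, which lifts the translation block, by 0.78 and 0.92. Gdf15, a secreted stress signal, rose by 0.95 and 0.78, and the mitochondrial folate enzyme Mthfd2 by 0.48 and 0.56. Atf5 and Cebpg passed under tiamulin (0.47 and 0.24) and not under lefamulin (0.21 and 0.13), a contrast that was not past the test in the direct comparison (adjusted p = 0.187 and 0.420). Cebpb was at −0.22 and 0.09 with an SE of 0.291 and 0.289 and did not pass. The gene that fell under tiamulin was the kinase Eif2ak2 (−0.26, adjusted p = 0.0180, lost without control 1 or control 2), which was picked after its value was seen.

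The NRF2 list of 13 genes around cystine and glutathione use had 6 genes raised and 0 lowered under lefamulin (1 lower at an unadjusted p value below 0.05 in edgeR, 0 by DESeq2), and 3 raised and 2 lowered under tiamulin. With GC content and length offsets, 7 rose and 2 fell under lefamulin and 6 rose and 2 fell under tiamulin, and with the offsets and a replicate block these were 7 and 1, and 7 and 2. Hmox1, the haem oxygenase, had the largest change of those that passed, a log2(fold change) of 0.89 ± 0.082 (edgeR adjusted p = 7.84e-06) and 1.15 ± 0.082 (adjusted p = 7e-07). Txnrd1, a thioredoxin reductase, rose by 0.25 and 0.29, and the haem transporter Slc48a1 by 0.22 and 0.28. The sulfiredoxin gene Srxn1 (0.43 and 0.26) and Gclm, a subunit of the enzyme that starts glutathione synthesis (0.25 and 0.19), passed under lefamulin and lay at adjusted p = 0.0504 and 0.0515 under tiamulin, with no difference between the drugs past the test (adjusted p = 0.271 and 0.626). Nqo1, a quinone reductase at no more than 48 counts, was at 0.91 and 0.74 and did not pass (adjusted p = 0.0657 and 0.124). Me1, an NADPH-making enzyme, rose under lefamulin (0.16, adjusted p = 0.0421). Under tiamulin, Keap1, the inhibitor of NRF2, and Gsr, the glutathione reductase, fell by 0.36 and 0.26 on the log2 scale. Without tiamulin 2, 8 genes rose and 1 fell under lefamulin, and 6 rose and 2 fell under tiamulin, while without control 3 or lefamulin 2 only 3 rose under lefamulin. The 2 that fell under tiamulin were 1 without any 1 control, lefamulin 1, tiamulin 1 or tiamulin 3.

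When tiamulin was tested against lefamulin, the call was made for 1 of the 11 other plasma membrane transporters (Slc7a2), for 3 of the 22 ATF4 list genes (under tiamulin Chac1 was higher, as was Vldlr, a lipoprotein receptor, by 0.32 with adjusted p = 0.0350, and Eif2ak2 was lower, at −0.35 with adjusted p = 0.00953, the latter 2 named after their values were seen), and for 0 of the lysosomal, mitochondrial and NRF2 genes in edgeR. At an unadjusted p value below 0.05 these last counts were 4 of 11, 0 of 8 and 2 of 13, and by DESeq2 they were 0, 0 and 1. Without any 1 lefamulin library, 0 ATF4 list genes were higher under tiamulin, and without lefamulin 1 or lefamulin 2, 0 were lower. The counts were 4 higher and 3 lower without tiamulin 2, 6 higher and 2 lower with GC content and length offsets, and 0 and 1 with the replicate block. Beyond these, genes that passed under 1 drug and not under the other are not shown to differ between them.

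**Figure D5:**
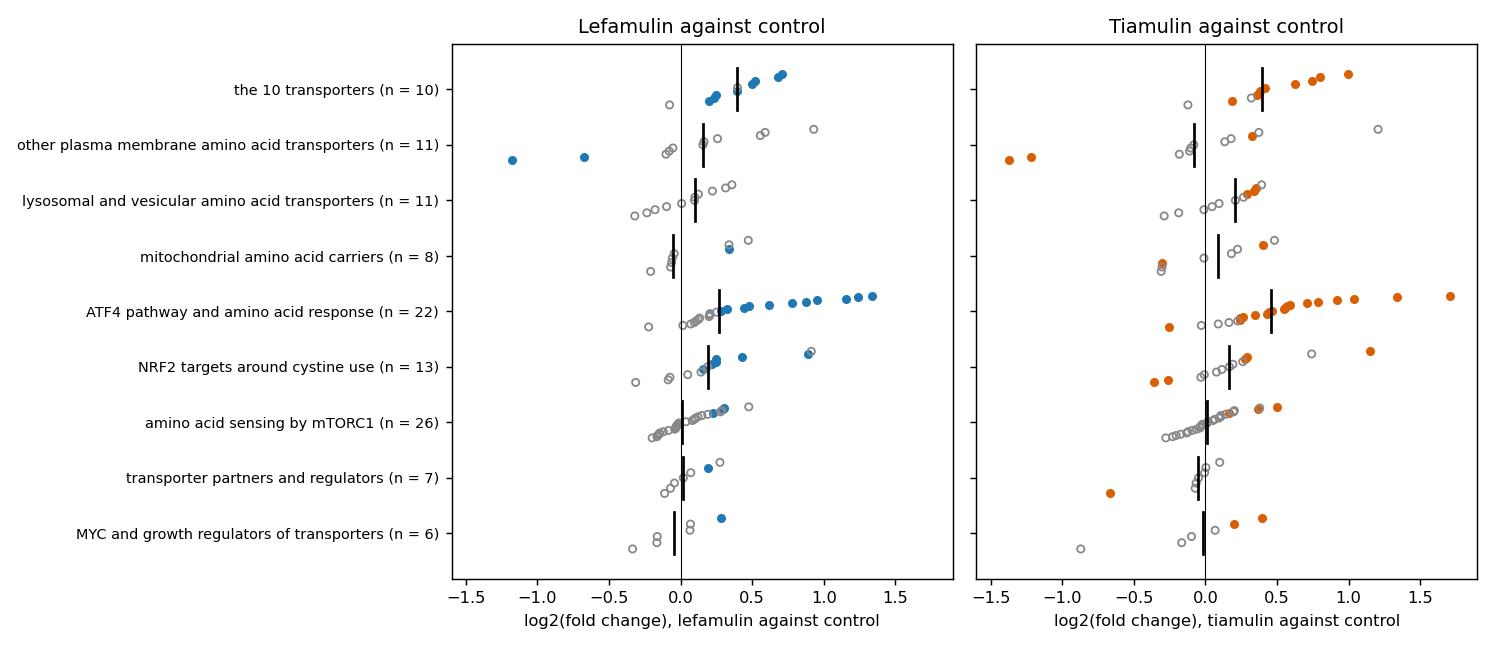
Log2(fold change) of every tested gene in each list, lefamulin against control on the left and tiamulin against control on the right, with 1 point per gene. Filled points have an adjusted p value below 0.05 (edgeR), open points do not, and the black bar is the median of the list. The 10 transporters lie almost wholly right of 0, while the medians of the other transporter lists run from −0.08 to 0.21, with 2 filled points far to the left (Slc7a2 and Slc1a2).

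The RefSeq promoter table (GRCm38.p6) held 7 of the 10 transporters in 11 windows that run from 250 bases before a start to 50 after it, and had no entry for Slc7a5, Slc1a5 and Slc38a1. TGATGNAA was found on either strand in 3.97% of all 32851 windows and in 4.51% of 27025 genes. Among the 7 transporters it was found in Slc7a11 and Slc1a4, and in the ATF4 list in 7 of 25 genes. The 30 bases around each match are shown for Slc1a4 and for the ATF4 list genes named above that hold one, with the match in capitals and all in the direction of the gene, to set the Slc1a4 and Slc7a11 letters beside those of genes that rose under at least 1 of the drugs.
Slc1a4 (chr11:20332699-20332728, minus strand, match at −4 to 4): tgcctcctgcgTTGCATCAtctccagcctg
Atf3 (chr1:191183425-191183454, minus strand, match at −110 to −103): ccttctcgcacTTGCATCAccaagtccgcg
Chac1 (chr2:119351038-119351067, plus strand, match at −193 to −186): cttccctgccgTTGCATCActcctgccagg
Nupr1 (chr7:126625562-126625591, minus strand, match at −110 to −103): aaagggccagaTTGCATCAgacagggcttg
Trib3 (chr2:152344028-152344057, minus strand, match at 15 to 22): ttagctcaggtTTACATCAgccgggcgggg
Vldlr (chr19:27216809-27216838, plus strand, match at −200 to −193): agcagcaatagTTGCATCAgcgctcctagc
Asns (chr6:7693214-7693243, minus strand, match at −23 to −16): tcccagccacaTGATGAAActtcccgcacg

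The match of Slc1a4 and those of Atf3, Chac1, Nupr1 and Vldlr hold the same 8 letters as the second match of Slc7a11, read on the opposite strand. A further motif, TGACNNNGC, the core letters of the NRF2 antioxidant response element, was found on either strand in 4 of the 7 transporters (Slc38a2, Slc6a9, Slc7a1 and Slc7a6) and in 14% of all genes. The E-box CACGTG, which is its own reverse complement, was in none of the 7 and in 8.09% of all genes. No match of a motif overlapped one of another. The matches are letters in a window, not shown to be bound.

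Over the 9 libraries, the genes whose log2 CPM followed Slc3a2 most closely were Hilpda (Pearson r = 0.991), Ano1 (0.990), Dhcr7 (0.988), Slc7a1 (0.988) and Sprr1b (0.988). Those nearest to Slc6a9 were Rhoc (0.989), Eif3c (0.989), Ank2 (0.988), Cldn4 (0.987) and Tars (0.986). These correlations span 3 groups that differ in level and share normalization, and are given as a description. Slc7a1 was thus the only one of the 10 among the nearest genes of either.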

How the data were processed

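RNA-Seq of 9 Hepa1-6 libraries was analysed. Per the labels' processing notes the authors used CASAVA 1.8, fastp, HISAT2 2.0.5, featureCounts 1.5.0-p3 and DESeq2 1.20.0 with the build mm10. The deposited counts are whole reads per gene without normalization. The deposited FPKM equalled the counts divided by gene length and a library total within 2.46e-05%. Only 2.76% of 52036 nuclear genes, and 0 of the 10 transporters, have the position of GRCm38 (GENCODE M21), so positions are as deposited, of another build than the promoter sequences.

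Counts were tested with edgeR 4.0.16 in R 4.3.3 (TMM factors 0.994 to 1.01, filterByExpr, robust quasi-likelihood fit of all 9 libraries with group as the only term, Benjamini-Hochberg over 14510 genes, tested on simulated data). SE is the log2(fold change) over the square root of F, and intervals are 95% per gene. Intervals cover the spread between these libraries only, and CPM and FPKM carry counting error at low counts.

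The transporters and lists were chosen with earlier results of these data known. Named genes are the 10, the first 12 of the ATF4 list as far as analysed here, at most 6 per list and comparison with control past adjusted p 0.05 with the smallest adjusted p, and the 5 genes nearest in log2 CPM (prior count 2) to the transporter with the largest change under each drug.

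Alternatives were DESeq2's size factors, DESeq2 1.42.0, no filter, at least 10 counts in every library, 2 groups alone, limma 3.58.1 on log2(FPKM + 1) or log2(FPKM + 0.1) for genes with FPKM over 1 in at least 3 libraries, offsets for GC content and length, a replicate block with and without these offsets, and leaving out each library. GC content was known for 14242 genes. Replicate libraries differed by 2.88 to 20.5 times the sampling noise (chi-square per degree of freedom), so none was counted as a duplicate.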

Additional observations from a re-analysis of the deposited data

How the results depend on the processing

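Slc7a11, Slc3a2, Slc7a1, Slc1a4 and Slc6a9 kept an adjusted p value below 0.05 under both drugs in all 19 alternatives, and Slc7a5 and Slc1a5 did so under tiamulin. Under lefamulin the call was lost for Slc7a5 in 9, Slc1a5 in 10 and Slc38a2 in 6 of 19, under tiamulin for Slc38a2 in 7, and for Slc7a11 between the drugs in 11. Slc38a1 was not in the limma fits and had 17. Of the values of single transporters, 512 kept direction and side of the threshold, 43 lost it and 3 gained it.

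Under lefamulin 8 transporters rose, 5 with the replicate block and 5 to 8 with a library left out, and 1900 genes were called, against 3510 with the 2 groups alone, 3497 with GC content and length offsets, 3170 with block and offsets, and 993 to 3708 with a library left out. Under tiamulin no transporter fell, but 1 did with the offsets, 0 to 1 passed both thresholds with a library left out, and 2383 genes were called, against 3903 with offsets, 3579 with block and offsets, and 1462 to 3433 with a library left out. Between the drugs 1 transporter was higher under tiamulin, and 0 with the 2 groups alone, the block, limma on log2(FPKM + 1) or limma on log2(FPKM + 0.1), and 0 to 1 with a library left out. All genes called were 711 there, against 1271 with no filter, 280 with the 2 groups alone, 263 with the block, 443 and 444 with limma, 1875 with offsets, 1553 with block and offsets, and 204 to 1309 with a library left out.

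Differences between the drugs near 0 changed sign with a library left out, over ranges of −0.0567 to 0.0205 for Slc38a2 (above 0 without lefamulin 2, lefamulin 3 or tiamulin 2), −0.175 to 0.0017 for Slc38a1 (without tiamulin 1), −0.0099 to 0.0605 for Slc3a2 (below 0 without tiamulin 2) and −0.0451 to 0.0159 for Slc7a1 (above 0 without tiamulin 3). The cause of these changes was not tested, except that fits with fewer libraries hold fewer samples. Without control 2, 7 of 10 transporters kept their rank by FPKM in control. Same-numbered libraries of different groups did not deviate together (correlations from −0.53 to 0.0635, 0 of 9 over 0.1). Deviations along GC content enter these correlations, so they cannot tell whether the numbers pair the libraries. Depth was lowest for Slc38a1, at no more than 163 counts, and its part in the missing call was not tested.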

Other observations

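Of 26 tested genes of amino acid sensing by mTORC1, 3 rose under lefamulin and 3 under tiamulin in edgeR, beside 7.09% and 9.08% of all tested genes, with median log2(fold changes) of 0.01 and 0.01. Under lefamulin these were the folliculin partners Fnip2 (0.31, edgeR adjusted p = 0.00801) and Fnip1 (0.30, adjusted p = 0.0162) and the Rag GTPase gene Rragc (0.23, adjusted p = 0.0110). Under tiamulin they were the sestrin gene Sesn1 (0.50, adjusted p = 0.00838), Rragc (0.17, adjusted p = 0.0439) and Kics2, of the KICSTOR complex (0.37, adjusted p = 0.0450). Either count was 1 without control 1, control 3 or lefamulin 2, and that under tiamulin also without control 2, lefamulin 1, lefamulin 3 or tiamulin 3.

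Of 7 tested partners and regulators of transporters, Laptm4b, which holds the Slc3a2 and Slc7a5 proteins at lysosomes, rose under lefamulin (0.19, edgeR adjusted p = 0.0498), a call lost without any 1 library but control 2 and tiamulin 2, and was at 0.0030 under tiamulin (adjusted p of the difference between the drugs 0.0868). Rnf5, a ubiquitin ligase known to act on the Slc1a5 and Slc38a2 proteins, had 305, 356 and 328 counts in control, 376, 314 and 418 under lefamulin, and 210, 169 and 209 under tiamulin. It fell under tiamulin (−0.67 ± 0.127, adjusted p = 0.00235) and was lower there than under lefamulin (−0.94 ± 0.126, adjusted p = 0.00104), with no overlap of the tiamulin libraries with the others. Of 6 growth regulators, Hif1a rose under lefamulin (0.28, adjusted p = 0.00697) and tiamulin (0.20, adjusted p = 0.0392), and Myc, a known activator of Slc7a5 and Slc1a5, rose under tiamulin (0.39, adjusted p = 0.0155) and was at 0.07 under lefamulin (adjusted p = 0.725), with a difference between the drugs of 0.33 (adjusted p = 0.0773). The 1 call under lefamulin was lost without lefamulin 2, and the 2 under tiamulin were 0 or 1 without any 1 library but tiamulin 2.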
